A study of Mus musculus with 12 samples.

Results

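The 8 genes described here, Foxa1, Hoxb13, Fkbp5, Tmprss2, Slc45a3, Pbsn, Msmb and Ndrg1, encode pioneer and lineage factors, targets and secreted products that mark androgen receptor activity in prostate epithelium. They were picked by symbol, with earlier results of these data known but by no threshold on their values, and all 8 had a row among the 55216 genes of the count table. Reads were assigned to 6 of them, and 4 (Foxa1, Hoxb13, Fkbp5 and Slc45a3) had enough reads to be tested, among 13177 tested genes. Myc-CaP cells, an established prostate cancer line from a male FVB/NJ mouse, were grown in DMEM with 10% serum and treated for 48 h, and their poly(A) RNA was sequenced. Each of the 6 groups had 2 libraries: untreated cells (Ctrl), IFNγ at 200 pg (IFN200), IFNγ at 2000 pg (IFN2000), oxaliplatin at 2 μM (Oxali), and oxaliplatin with IFNγ at 200 pg (Combo200) or at 2000 pg (Combo2000). The labels gave the IFNγ dose as a mass with no volume, and the paper states its IFNγ doses for RNA-seq of these cells per mL. The libraries were grouped by their titles, because the agent field of the 6 single-treatment libraries named another treatment than the title did. All groups came from 1 line in culture, so no stroma or intact gland was sampled.

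The androgen receptor is a steroid hormone receptor that is held by Hsp90, Hsc70 and FKBP-type co-chaperones until androgen binds it, and it then enters the nucleus and binds DNA at inverted repeats of a short element. FOXA1 opens chromatin so that the receptor can bind, and HOXB13, a homeodomain factor of the prostate and distal gut, works beside it at many prostate enhancers. In the gland the receptor drives FKBP5, TMPRSS2, SLC45A3 and NDRG1 and the secreted proteins probasin (Pbsn) and microseminoprotein (Msmb).

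The cells carried only part of the luminal marker set. On the RPKM scale, which divides reads by exon length and library size, Ctrl cells had 77.4 for Krt19, 77.2 for Cd24a and 10.2 for Krt8. Krt18 was at 0.113, Spdef at 0.0110 and Cdh1 at 0.00608, and Epcam and Dpp4 had no reads in Ctrl. Markers of luminal progenitor and urethral epithelium were high in the same libraries, with Psca at 326, Krt4 at 292 and Ly6a at 106. Basal markers were also present in part, with Dst at 7.13 RPKM, Krt15 at 6.51 and Krt14 at 1.60, all below Krt8. Trp63 and Krt5 were at 0.0347 and 0.0127. Of the neuroendocrine markers Ncam1 was at 10.2 RPKM and Syp at 0.0369. The genes are therefore called by their symbols and roles here, and not by a luminal identity of the line.

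**Figure D1:**
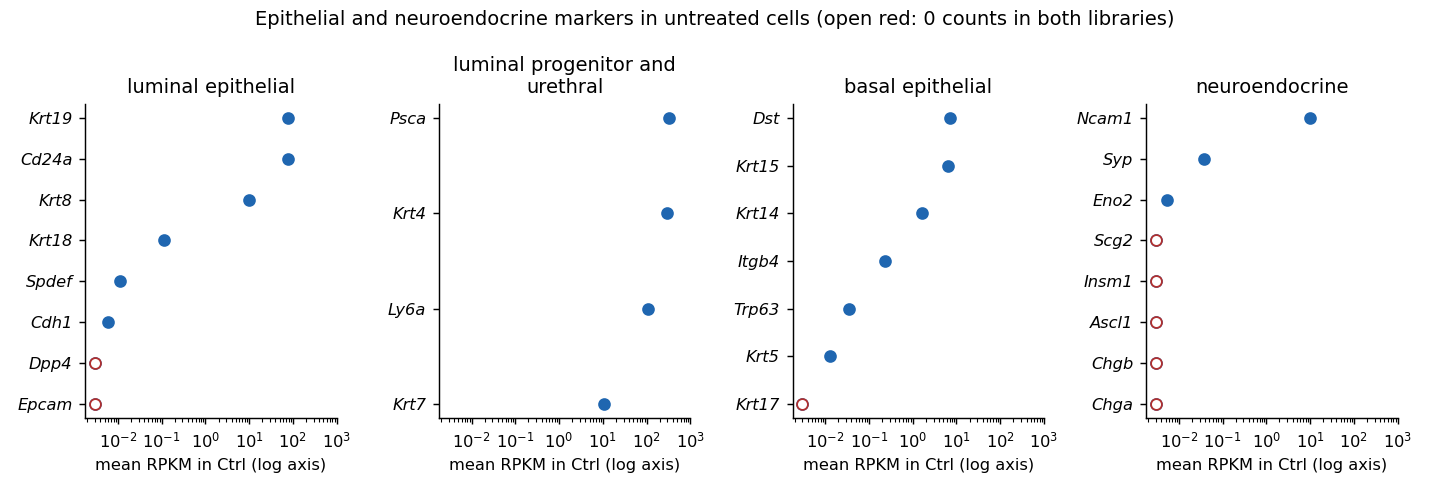
Mean RPKM in the 2 Ctrl libraries (log axis) of luminal, luminal progenitor, basal and neuroendocrine markers, with open red points for markers without a read. Psca, Krt4 and Ly6a lie at the top, while the luminal markers run from Krt19 at 77.4 down to Epcam and Dpp4 without reads.

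RefSeq promoter windows, taken here as the 250 bases before a transcript start in GRCm38.p6, were listed for 5 of the 8 genes (Fkbp5, Foxa1, Tmprss2, Pbsn and Slc45a3). The windows of the 3 tested genes among them are printed because the first and second of these genes were lower in every group with oxaliplatin and the third was not. They were read at chr12:57546122-57546361 for Foxa1 (minus strand), chr17:28486150-28486399 for Fkbp5 (minus strand) and chr1:131962665-131962914 for Slc45a3 (plus strand). For Foxa1 the 10 bases next to the start, which GENCODE annotates as exon, were left out. Capitals mark the FOXA core GTAAACA in Foxa1 and the E-box CACGTG in Fkbp5.
Foxa1: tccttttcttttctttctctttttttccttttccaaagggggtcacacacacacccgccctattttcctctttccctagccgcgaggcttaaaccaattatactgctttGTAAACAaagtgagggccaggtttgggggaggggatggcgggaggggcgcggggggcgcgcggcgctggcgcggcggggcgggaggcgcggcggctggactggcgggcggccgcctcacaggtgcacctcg
Fkbp5: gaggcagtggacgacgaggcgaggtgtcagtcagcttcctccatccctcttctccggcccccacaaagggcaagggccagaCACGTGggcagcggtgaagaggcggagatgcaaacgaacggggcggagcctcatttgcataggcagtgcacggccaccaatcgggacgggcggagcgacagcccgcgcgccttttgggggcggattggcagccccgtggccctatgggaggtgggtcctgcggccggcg
Slc45a3: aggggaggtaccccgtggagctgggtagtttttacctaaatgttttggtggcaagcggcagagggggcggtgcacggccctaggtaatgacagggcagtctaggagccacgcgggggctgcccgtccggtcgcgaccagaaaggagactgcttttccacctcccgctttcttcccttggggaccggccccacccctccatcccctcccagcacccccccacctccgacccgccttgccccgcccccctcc

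Motifs were searched on both strands and are described as letters, not as bound sites. GTAAACA, 141 bases before the Foxa1 start, occurred in 3.17% of 32851 windows, and CACGTG, 169 bases before the Fkbp5 start, in 6.02%. The androgen receptor hexamer AGAACA, in 16.1% of windows, was found in the Pbsn window only, 95 bases before the RefSeq start and inside the longer first exon that GENCODE gives Pbsn. TATAAA, in 12.4% of windows, was present 59 bases before the Pbsn start and 148 bases before the start of a second Slc45a3 window. The interferon gamma activated site TTCNNNGAA was in none of the windows of these genes and in 7.02% of all windows, and the full palindromic androgen receptor element was in 3 windows of the 32851, none of them of these genes. The Fkbp5, Foxa1 and first Slc45a3 windows were 68.0%, 62.0% and 66.8% GC, compared with a median of 52.4% over all windows, and that of Pbsn was 41.2%. The RefSeq starts of Fkbp5 and Foxa1 lie inside the GENCODE spans of these genes.

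The libraries held 18749975 to 25931516 assigned reads, so that a count of 0 allowed a level of up to 0.111 to 0.167 CPM (3 counts; counting error only). No library pair was a copy, and nothing in the labels says that the libraries of a group came from separate cultures, so that p-values measure the spread between these samples, which may be technical. By chi-square per degree of freedom over genes with enough reads, the 2 libraries of a group differed most in Oxali (8.39). The value was 5.06 in IFN2000, 3.26 in Combo2000, 2.43 in IFN200, 1.74 in Ctrl and 1.65 in Combo200. IFN2000 replicate 2 stood apart in its markers of leukocytes: 7 of the 11 listed markers had reads, they summed to 7.75 CPM against 0.663 to 2.92 in the other libraries, and Ptprc had 64 reads there against at most 2 elsewhere, while Cd8a, Itgam and Adgre1 had none in any library. IFN200 replicate 1 had the highest sum of heart muscle markers, 10.1 CPM against 0.835 to 6.26. For several gene lists the counts in IFN2000 are given with and without these libraries, while most values of single genes are given only with them. The shares of all tested genes printed beside the lists are from the fit with all 12 libraries. Leaving both out leaves 1 library in IFN200 and in IFN2000.

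Foxa1, the pioneer factor of the receptor, was the member that moved most: it was lower by about the same amount in all 3 groups with oxaliplatin, and IFNγ alone left no called change. Foxa1 (chr12:57540628-57546916, minus strand, 3327 exon bases) was at 428 and 433 CPM in the Ctrl libraries, 427 and 430.5 with IFN200, and 409 and 429.9 with IFN2000. With Oxali it was at 214 and 199 CPM, with Combo200 at 206 and 212, and with Combo2000 at 215 and 208. All 6 libraries with oxaliplatin therefore lay below all 6 libraries without it. How many of all tested genes separate in this way was not counted, and 67.6% were called in Oxali relative to Ctrl. Foxa1 fell by 52.0% in Oxali relative to Ctrl (log2 fold change −1.06, SE 0.04, adjusted p = 3.21e-14, edgeR's quasi-likelihood test). The log2 fold changes from Ctrl were −1.04 in Combo200 (adjusted p = 3.13e-14) and −1.03 in Combo2000 (adjusted p = 3.59e-14). In Oxali relative to Ctrl, 416 of the 13177 tested genes had a lower log2 fold change than Foxa1.

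Hoxb13 (chr11:96194316-96197447, plus strand, 2206 exon bases), the homeodomain factor, fell in the same groups by a smaller amount. The Ctrl libraries had 44.3 and 40.3 CPM, those with IFN200 45.1 and 40.7, and those with IFN2000 43.9 and 42.3. The Oxali libraries had 32.6 and 30.5 CPM, those of Combo200 29.7 and 29.3, and those of Combo2000 29.2 and 32.7. The highest library with oxaliplatin lay below the lowest library without it, a separation not counted over all tested genes. Hoxb13 fell by 25.4% in Oxali (log2 fold change −0.42, SE 0.07, adjusted p = 2.08e-05), and its log2 fold change from Ctrl was −0.52 with Combo200 (adjusted p = 1.29e-06) and −0.45 with Combo2000 (adjusted p = 6.7e-06). No other gene overlaps the exons of Hoxb13 or Foxa1.

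Fkbp5 (chr17:28399094-28517527, minus strand, 9468 exon bases) encodes a co-chaperone of steroid receptors and is a widely used readout of androgen and glucocorticoid signalling. Without oxaliplatin it was at 664 and 678 CPM (Ctrl), 700.1 and 676 (IFN200), and 643 and 671 (IFN2000). With oxaliplatin it was at 462 and 447 CPM (Oxali), 452 and 439 (Combo200), and 418 and 410.4 (Combo2000). Again no library with oxaliplatin overlapped one without it, and the share of all tested genes with such a separation was not counted. Fkbp5 fell by 32.3% in Oxali (log2 fold change −0.56, SE 0.04, adjusted p = 4.85e-11), and the corresponding values were −0.59 with Combo200 (adjusted p = 2.06e-11) and −0.70 with Combo2000 (adjusted p = 1.65e-12). The falls of Foxa1, Hoxb13 and Fkbp5 in these 3 comparisons were called under each of the 23 alternative settings tried. IFN200 replicate 1 and IFN2000 replicate 2 are in none of the groups compared here, so leaving them out is a weak check of these falls.

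Slc45a3 (chr1:131962967-131982969, plus strand, 3563 exon bases), which encodes prostein, a membrane transporter of prostate epithelium, did not follow the other 3. It was scarce, with 35 to 54 reads in the libraries without oxaliplatin and 56 to 76 in those with it. Ctrl libraries had 1.95 and 2.18 CPM, those with IFN200 2.30 each, and those with IFN2000 1.88 and 2.41. Oxali libraries had 3.13 and 2.67 CPM, Combo200 libraries 2.49 and 2.63, and Combo2000 libraries 2.82 and 3.10. The libraries with oxaliplatin lay above those without it, with the smallest gap between Combo200 and IFN2000. This separation was likewise not counted over all tested genes. Slc45a3 rose by 40.4% in Oxali relative to Ctrl (log2 fold change 0.49, SE 0.20, adjusted p = 0.0357) and also in Combo2000 (0.51, SE 0.19, adjusted p = 0.024), whereas in Combo200 the value was 0.31 (SE 0.20, adjusted p = 0.176). These calls were not stable: with DESeq2 the adjusted p was 0.148 in Oxali and 0.122 in Combo2000, without the filter on low counts it was 0.0605 in Oxali, and with a correction for gene length and GC content the log2 values were 0.30 (adjusted p = 0.201) and 0.28 (adjusted p = 0.220). The Oxali call was also lost without Ctrl replicate 1 (adjusted p = 0.157), Ctrl replicate 2 (0.0637) or Oxali replicate 1 (0.209), and the Combo2000 call without Ctrl replicate 1 (0.128) or Combo2000 replicate 3 (0.105). Slc45a3 shares 481 exon bases with Gm29103 on the same strand, which had no reads.

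**Figure D2:**
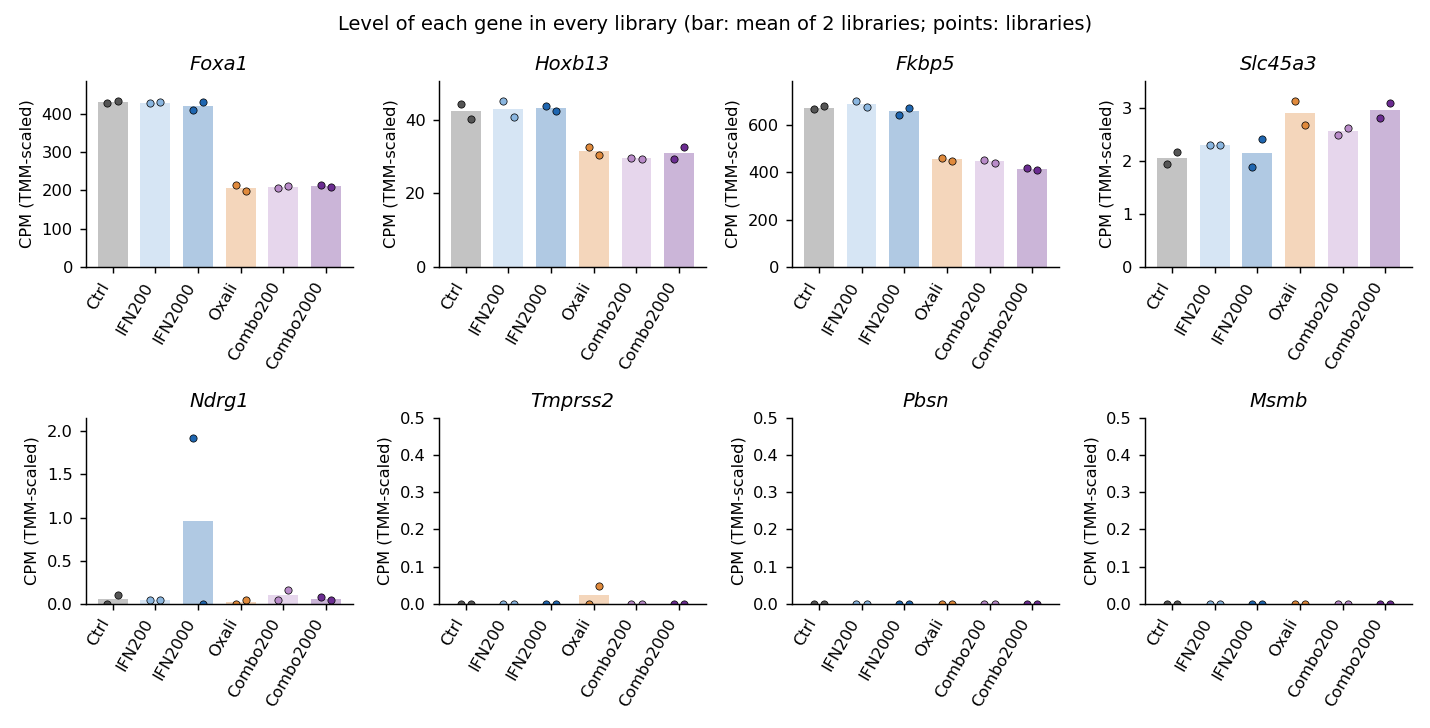
CPM of each of the 8 genes in the 12 libraries, by group, with bars at the mean of the 2 libraries. Foxa1, Fkbp5 and Hoxb13 lie lower in every library with oxaliplatin, a pattern not counted over all tested genes. Ndrg1 has reads mainly in 1 IFN2000 library.

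Across the whole table oxaliplatin changed most genes, and the members are to be read against that. In Oxali relative to Ctrl, 67.6% of the 13177 tested genes were called, and all 4 tested members were. In Combo200 relative to Ctrl 68.7% of tested genes and 3 of the 4 members were called, and in Combo2000 69.2% and 4 of 4. With so high a share, a called change by itself does not set these genes apart. How many of all tested genes showed no overlap between libraries with and without oxaliplatin was not counted. The separations given above therefore do not set these genes apart either. In bulk RNA, fewer cells of a type and less RNA per cell cannot be told apart, and CPM values are shares of the library.

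To determine whether IFNγ alone altered these genes, both doses were compared with Ctrl. None of the 4 tested members was called at 200 pg, where 0.114% of tested genes were, or at 2000 pg, where 16.9% were. The log2 fold changes at 200 pg were 0.04 for Fkbp5, 0.02 for Hoxb13, −0.01 for Foxa1 and 0.15 for Slc45a3, and at 2000 pg −0.03, 0.03, −0.04 and 0.05, respectively. The smallest adjusted p of these values was 0.604, for Foxa1 at 2000 pg. Both IFN200 libraries lay above both Ctrl libraries for Slc45a3, and the 2 groups overlapped for the others. An exact permutation test of 2 against 2 libraries cannot go below p = 0.333, so this separation is weak evidence of a change. Between the doses, IFN2000 relative to IFN200, 22.3% of genes and none of the members were called.

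To determine whether IFNγ added to the effect of oxaliplatin, the combinations were compared with Oxali. In Combo200 relative to Oxali 1.83% of genes and none of the members were called, with log2 fold changes of −0.03 for Fkbp5, −0.10 for Hoxb13, 0.02 for Foxa1 and −0.18 for Slc45a3. In Combo2000 relative to Oxali 4.36% of genes were called, and 1 member: Fkbp5, whose level was 454 ± 10.3 CPM (SD, n = 2) in Oxali and 414 ± 5.55 in Combo2000. Fkbp5 fell by 8.81% in this comparison (log2 fold change −0.13, SE 0.04, adjusted p = 0.0412), and both Combo2000 libraries lay below both Oxali libraries. This call held in 11 of 23 alternative settings, with log2 values from −0.16 to −0.11 and adjusted p from 0.00306 to 0.281. It was lost, among others, with only these groups in the fit (adjusted p = 0.0719) and without any 1 of the 10 libraries outside IFN2000, of which Oxali replicate 1 gave the smallest value (−0.11, adjusted p = 0.274). Foxa1 and Hoxb13 differed from Oxali by 0.03 (adjusted p = 0.795) and −0.03 (adjusted p = 0.902).

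The interaction, which asks whether the oxaliplatin change differs with and without IFNγ, was called for no member at 200 pg (0.698% of genes called) or at 2000 pg (2.72%). The value for Fkbp5 at 2000 pg was −0.10 (SE 0.05, adjusted p = 0.33), and with the correction for length and GC content it was −0.19 (adjusted p = 0.0182). For Foxa1 it was 0.07 (SE 0.06), for Hoxb13 −0.06 (SE 0.10) and for Slc45a3 −0.03 (SE 0.27). Between the combinations, Combo2000 relative to Combo200, 1.37% of genes and no member were called. Fkbp5 differed there by −0.10 (adjusted p = 0.299). Over all 7 comparisons in which edgeR called no member, this was the 1 value of 28 with an unadjusted p under 0.05, and DESeq2 called none.

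When oxaliplatin was compared in the presence of IFNγ, the same 3 genes fell. In Combo200 relative to IFN200, where 69.9% of genes were called, the log2 fold changes were −1.04 for Foxa1, −0.63 for Fkbp5 and −0.54 for Hoxb13, and Slc45a3 was at 0.16 (adjusted p = 0.468). In Combo2000 relative to IFN2000, where 72.3% were called, they were −0.99 for Foxa1, −0.66 for Fkbp5 and −0.48 for Hoxb13. Slc45a3 rose by 0.46 on the log2 scale there (SE 0.18, adjusted p = 0.03), and was at 0.28 (adjusted p = 0.259) without IFN2000 replicate 2 and was not called without Combo2000 replicate 3 (adjusted p = 0.132) or with DESeq2 (adjusted p = 0.163). These comparisons share libraries with those against Ctrl and Oxali.

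**Figure D3:**
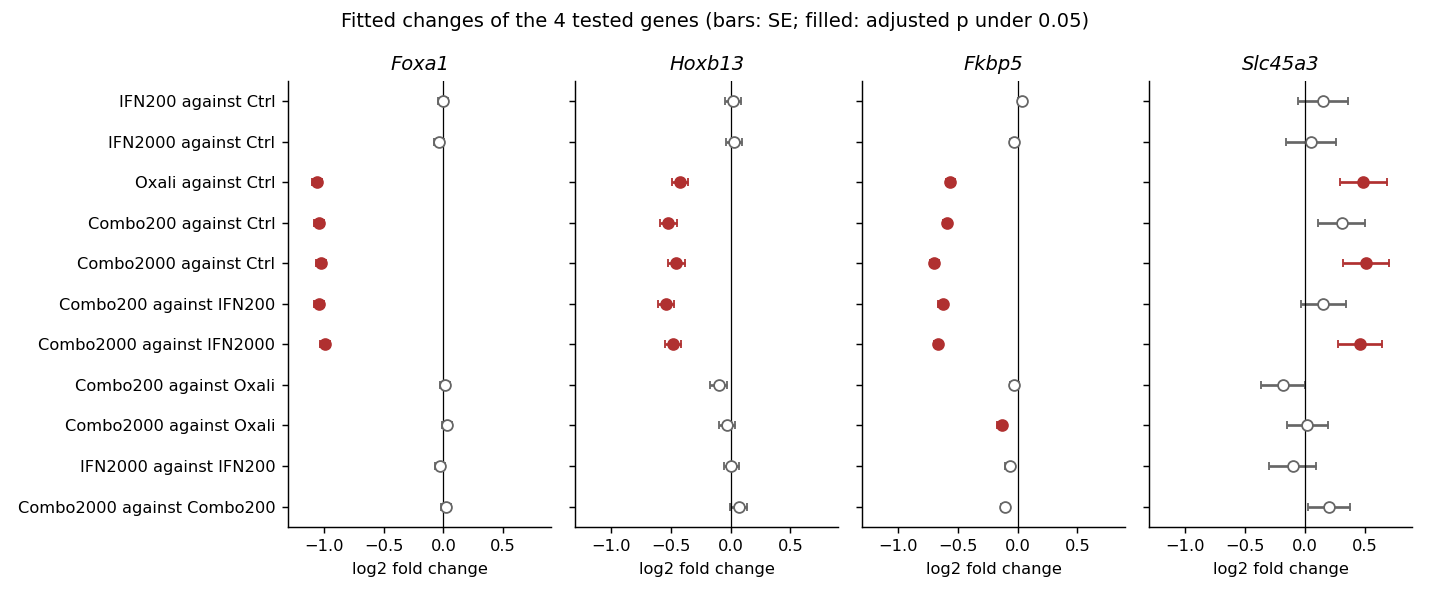
log2 fold change of Foxa1, Fkbp5, Hoxb13 and Slc45a3 in each comparison, with bars of 1 SE and called values filled. Foxa1 lies near −1 in every comparison that adds oxaliplatin, and the comparisons that add only IFNγ lie near 0.

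Ordered by group level, the only neighbouring groups that differed for Foxa1, Hoxb13 and Fkbp5 were the lowest without and the highest with oxaliplatin. For Foxa1 this step was from Combo2000 (211 ± 4.83 CPM, SD, n = 2) to IFN2000 (419 ± 14.7), for Hoxb13 from Oxali (31.5 ± 1.47) to Ctrl (42.3 ± 2.87) and for Fkbp5 from Oxali to IFN2000 (657 ± 20.3). For Slc45a3, from 2.06 ± 0.164 in Ctrl to 2.96 ± 0.204 in Combo2000, no neighbouring groups differed. Per exon length, Foxa1 was the most abundant of the 4 in Ctrl at 129 RPKM, followed by Fkbp5 at 70.9, Hoxb13 at 19.2 and Slc45a3 at 0.579. Of 26283 genes with reads and a length, Foxa1 ranked at 326 and Slc45a3 at 10934 in Ctrl.

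The remaining 4 genes were not tested, since too few reads were assigned to them. Pbsn (chrX:77837901-77853623), probasin, and Msmb (chr14:32142023-32158370), both secreted by differentiated prostate epithelium, had 0 reads in all 12 libraries. Tmprss2 (chr16:97564682-97611195), a membrane serine protease, had 1 read in all, in Oxali replicate 2 (0.0477 CPM). These counts set only the limit given above for a count of 0, and no difference between groups was detectable.

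Ndrg1 (chr15:66929318-66969640), which responds to androgen, hypoxia and stress, had 58 reads, of which 45 were in IFN2000 replicate 2 (1.93 CPM). The other 11 libraries held 13 Ndrg1 reads together, with at most 4 in any of them and 0 in IFN2000 replicate 3. The same library carried the leukocyte marker reads given above, and their part in the Ndrg1 reads was not tested. If genes are not filtered, Ndrg1 is called in IFN2000 relative to Ctrl (log2 fold change 4.06, SE 0.76, adjusted p = 5.32e-06), a value that rests on that 1 library. Antisense Gm17035 and the neighbouring Gm2895 share 419 and 137 exon bases with Ndrg1, and had 0 and 3 reads.

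The wider set of androgen response genes, those that rise with androgen in prostate cells, moved in both directions. Over all tested genes 34.8% rose and 32.8% fell in Oxali relative to Ctrl, and 8.39% rose and 8.47% fell in IFN2000, and the counts of each list are to be read against these shares. Of 49 listed genes 39 were tested, and in Oxali relative to Ctrl 18 rose, 15 fell and 6 were not called (median log2 fold change 0.10, against 0.02 for all tested genes). Aldh1a3, a retinaldehyde dehydrogenase, rose from 2.14 ± 0.196 to 8.82 ± 0.816 CPM (log2 fold change 2.03, adjusted p = 3.29e-10). Sord, sorbitol dehydrogenase, and Tsc22d1 rose by 1.83 and 1.29 on the log2 scale. Insig1, which restrains sterol synthesis, fell from 26.6 ± 1.51 to 7.07 ± 0.288 CPM (−1.91, adjusted p = 2.18e-13), and Acsl3, a fatty acyl-CoA ligase, and Pgm3 were at −1.08 and −0.95. In Combo2000 again 18 rose and 15 fell, with Insig1 at −1.97. With the correction for length and GC content, which moves the median over all genes in Oxali from 0.02 to −0.11, 16 rose and 19 fell (median −0.02).

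In IFN2000 relative to Ctrl 1 of the 39 androgen response genes rose, 10 fell and 28 were not called (median −0.02, against 0.00 for all tested genes, of which 8.39% rose and 8.47% fell). Elovl5, a fatty acid elongase, rose by 0.12 (adjusted p = 0.0458). Bmpr1b, a BMP receptor, fell from 40.6 ± 4.33 to 25.3 ± 1.85 CPM (log2 fold change −0.68), Arid5b was at −0.42 and Steap4, a metalloreductase, at −0.37. Called genes numbered 7 in place of 11 without Ctrl replicate 1 or without IFN2000 replicate 2; with IFN200 replicate 1 left out as well as the latter, 7 fell and none rose. At 200 pg none was called.

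Most chaperones that hold steroid receptors fell with oxaliplatin, and several rose with IFNγ at 2000 pg. Of 11 listed and tested, 10 fell and none rose in Oxali, Combo200 and Combo2000 (median log2 fold change −0.37 in Oxali, where 32.8% of all tested genes fell), and in IFN2000 7 rose, 4 were not called and none fell (median 0.15, with 8.39% of all tested genes higher). Hspa8, which encodes Hsc70, fell from 1382 ± 20.2 to 608 ± 1.05 CPM in Oxali (−1.19, SE 0.04). Fkbp4, which encodes the FKBP co-chaperone that competes with that of Fkbp5 for Hsp90 in receptor complexes, fell from 541 ± 11.5 to 253 ± 6.0 CPM (−1.10, SE 0.04), and Ptges3, the p23 co-chaperone, was at −0.94. In IFN2000 Ptges3, Fkbp4 and Hspa8 rose by 0.23, 0.21 and 0.21, and in Combo2000 Hspa8, Fkbp4 and Hsp90ab1 were at −1.12, −1.07 and −0.86. No scaling tried turned these directions, and without IFN200 replicate 1 and IFN2000 replicate 2 there were 4 chaperones that rose in IFN2000.

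Among receptor coregulators and pioneer factors, 18 of 19 listed genes were tested. In Oxali 10 rose and 4 fell (median 0.17, with 34.8% and 32.8% of all tested genes). With the correction for length and GC content these numbers were 8 and 7. Over all tested genes in Oxali, that correction moved the called numbers from 4590 higher and 4321 lower to 3647 and 5535. Smarca4, an ATPase of chromatin remodelling complexes, fell from 535 ± 6.05 to 277 ± 0.858 CPM (−0.95), with Med1 at −0.43 and the demethylase Kdm1a at −0.37, and the coactivator Ncoa1 rose by 0.73. Foxa3, a relative of Foxa1, went from 2 reads in each Ctrl library to 29 and 19 in Oxali, and Gata2 from 0 and 1 to 16 and 21. In IFN2000, where 8.47% of all tested genes fell, 6 of the 18 fell and none rose, among them Ncoa2 (−0.30), Ncoa1 (−0.24) and Ncor1 (−0.20), and 2 without IFN200 replicate 1 and IFN2000 replicate 2.

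The families of the members did not move as one. Of 13 other FKBP genes tested, 3 rose and 7 fell in Oxali, a called share near that of all tested genes (67.6%), from Fkbp11 at −1.21 and Fkbp1a at −0.76 to Fkbp1b at 0.84. Ndrg4 rose by 2.50 (SE 0.21) and Ndrg3 by 0.14 (adjusted p = 0.0121), and Ndrg2 fell by 0.36. Slc45a4, the only other tested SLC45 gene, rose by 0.25 (adjusted p = 0.0203). The calls of Ndrg3 and Slc45a4 were lost with the correction for length and GC content, at 0.020 (adjusted p = 0.719) and 0.072 (adjusted p = 0.457). In the Hoxb cluster, where Hoxb13 fell, Hoxb9 rose from 19.0 ± 1.44 to 48.3 ± 1.3 CPM in Oxali (1.34, SE 0.06), and Hoxb8 and Hoxb6 rose by 1.79 and 0.86. Of the membrane serine proteases beside Tmprss2, 4 of 14 were tested: Prss8 fell by 0.97 in Oxali, Tmprss11e rose by 1.49, and Tmprss6 went from 3 and 1 reads in Ctrl to 58 and 47. Hpn, hepsin, had no read in Ctrl.

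None of the 12 listed secretory genes of the prostate and seminal vesicle was tested; 7 had no read, and they summed to 0.322 to 0.857 CPM per library. Of the 5 other steroid receptors listed, only Esr1, the estrogen receptor, was tested, and it rose from 19.4 ± 1.51 to 57.1 ± 0.0358 CPM in Oxali (1.56, SE 0.06) and fell in IFN2000 (−0.42). Nr3c1, the glucocorticoid receptor, had 1 read in each of 2 libraries. Of 10 targets shared with that receptor 3 rose and 5 fell in Oxali (34.8% and 32.8% of all tested genes), with Pdk4 at 1.61, Dusp1 at 1.04 and Sgk1 at −0.88. In IFN2000 7 of the 10 fell and none rose (8.47% and 8.39% of all tested genes), with Pdk4 at −0.53, and 4 fell without IFN200 replicate 1 and IFN2000 replicate 2.

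**Figure D4:**
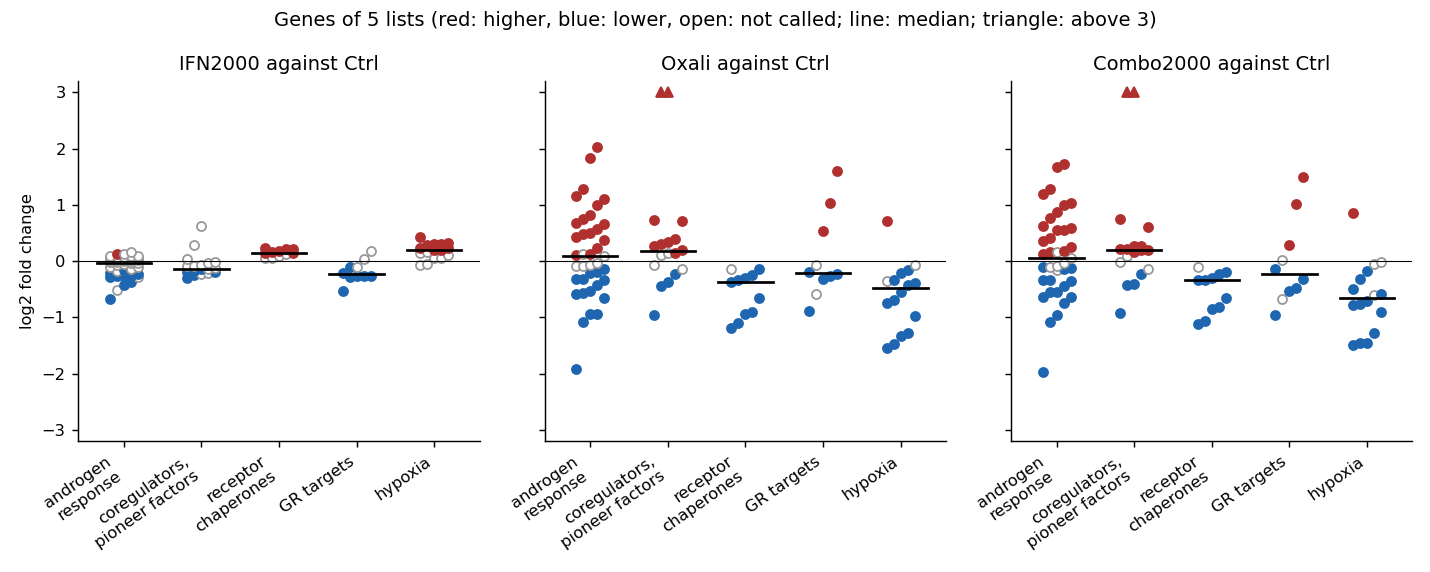
log2 fold changes in Oxali, IFN2000 and Combo2000 relative to Ctrl, 1 point per gene (red higher, blue lower, open not called, line at the median, triangles for values above 3). Shown are the tested androgen response genes, coregulators and pioneer factors, receptor chaperones, glucocorticoid receptor targets and hypoxia genes. The chaperones lie mostly below 0 with oxaliplatin and above 0 with IFN2000, and the androgen response genes lie on both sides of 0 in Oxali.

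Over the 12 libraries, the genes whose log2 CPM ran most like each member were found among 10475 genes; these correlations rest mainly on the step between libraries with and without oxaliplatin. Foxa1 was most like Ubqln2, Smarca4 and Sec24c (Pearson r = 0.998 for each), Fkbp5 like Prrc1, BC005537 and Clint1 (0.997 for each), and Hoxb13 like Aldoc (0.991), Pja1 (0.985) and Trappc1 (0.984). Slc45a3 was most like Arhgap9 (0.934), Mybl1 (0.932) and Xkr8 (0.927). Among the members, r was 0.986 between Fkbp5 and Foxa1, 0.960 between Foxa1 and Hoxb13 and 0.952 between Fkbp5 and Hoxb13, and −0.761 to −0.805 between Slc45a3 and each of them.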

How the data were processed

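Poly(A) RNA of 12 Myc-CaP libraries was sequenced, and the authors deposited raw counts of reads per gene. The methods give STAR and featureCounts on GRCm38, the submitters' processing notes give STAR 2.7.3a and RSEM 1.3.0, and the strand setting of the counting is not given in the sources used here. Gene positions, exon lengths and overlaps came from GENCODE for GRCm38, and promoter windows from RefSeq.

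Genes were kept by edgeR's expression filter (minimum count 10, minimum total 15) and scaled by TMM, and edgeR 4.0.16 (R 4.3.3) quasi-likelihood tests were fitted to all 12 libraries with 1 mean per group. Calls were at a Benjamini-Hochberg adjusted p under 0.05 over all tested genes, and tests were two-sided. CPM values use TMM-scaled library sizes, and log2 CPM for likeness used a prior count of 2. An exact permutation test of 2 against 2 libraries cannot go below p = 0.333. The fit of Oxali relative to Ctrl was also run on simulated counts in which few genes changed. That run does not test the fit where most genes are called, as in these data.

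The members and lists were chosen with earlier results of these data known. All members are described; from every other list the 3 largest called changes in each direction in Oxali, IFN2000 and Combo2000 relative to Ctrl were eligible to be named, as were the 2 largest called interactions in each direction at 2000 pg and Fkbp4, Ndrg2, Ndrg3, Ndrg4, Hpn and Nr3c1. Some genes of the lists are counted but not reported by name here. Alternatives were DESeq2 1.42.0, RLE size factors, upper-quartile scaling, a robust quasi-likelihood fit, no filter and a higher count minimum. Others were only the groups compared, a replicate block, a correction for length and GC content (mgcv 1.9.3), the block with that correction, and leaving out each library. Leaving out IFN200 replicate 1 and IFN2000 replicate 2 together was chosen after seeing the data.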

Additional observations from a re-analysis of the deposited data

Results flagged for a closer look

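For 10 named genes the oxaliplatin change at 2000 pg IFNγ differed from that without IFNγ by the interaction test. They were named because this test called them, so their number is not a result. The test called 2.72% of all tested genes, 3 of 39 androgen response genes and 1 of 18 coregulators and pioneer factors. Among androgen response genes the interaction was 0.53 for Bmpr1b (SE 0.12, adjusted p = 0.0155) and 0.46 for Arid5b (SE 0.08, adjusted p = 0.00293), both of which fell with IFNγ alone and were at 32.1 and 60.2 CPM in Combo2000, against 35.4 and 58.7 in Oxali. The coactivator Ncoa2 was at 0.30 (adjusted p = 0.0372), Esr1 at 0.39 (adjusted p = 0.0288) and Pdk4 at 0.42 (adjusted p = 0.00221). Of the hypoxia genes, Ddit4 was at −0.42 (adjusted p = 0.0459) and Vegfa at −0.35 (adjusted p = 0.0389).

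Of the epithelial and neuroendocrine markers, Ly6a had an interaction of 1.36 (SE 0.07, adjusted p = 1.31e-09): it was at 128 ± 6.36 CPM (SD, n = 2) in Ctrl, 173 ± 3.45 in IFN2000, 23.9 ± 0.267 in Oxali and 83.4 ± 5.93 in Combo2000. Krt4 was at −0.32 (adjusted p = 0.00340) and Ncam1 at 0.23 (adjusted p = 0.0271). The calls of Arid5b, Pdk4, Ly6a and Krt4 held in every setting tried, and those of the other 6 genes were lost in at least 1.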

How the results depend on the processing

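Of 1196 alternative values of the 4 tested members, 1099 kept direction and call; 32 lost the call, those of Slc45a3 and of Fkbp5 in Combo2000 relative to Oxali, 2 gained it (Fkbp5 in the interaction at 2000 pg), and 63 values called in neither fit changed sign, between −0.15 and 0.13. Krt8 in Combo2000 relative to Ctrl turned from 0.17 to −0.060 with the length and GC correction and −0.047 with that and the replicate block, neither called (adjusted p = 0.466 and 0.622).

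The counts of called genes moved by more than 1.5 times as follows. Without the filter they were 102 in IFN200 relative to Ctrl (15 in the fit reported), 372 in Combo200 relative to Oxali (241), 262 (92) and 785 (359) in the interactions at 200 and 2000 pg, and 1 member, Ndrg1, was called in IFN2000 relative to Ctrl and to IFN200. With only the groups compared they were 31 in IFN200, 1917 in IFN2000 relative to IFN200 (2943), 176 and 234 in the interactions, and 0 members in Combo2000 relative to Oxali. DESeq2 gave 373 in Combo2000 relative to Oxali (574) and 217 in the interaction at 2000 pg. The length and GC correction gave 24 in IFN200 and 591 genes and 1 member in the interaction at 2000 pg. With both libraries holding other markers left out there were 9 in IFN200, 881 in IFN2000 relative to Ctrl (2221), 485 in IFN2000 relative to IFN200, 202 in the interaction at 2000 pg and 7 androgen response genes in IFN2000.

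Same-numbered libraries did not deviate together (21 pairs, r from −0.24 to 0.105), so the numbers were not read as pairing. Some of these pairs repeat the same value, because the 2 libraries of a group deviate from their mean by equal and opposite amounts. A replicate block gave 1071 genes in IFN2000 relative to Ctrl, 1588 relative to IFN200, 142 and 331 in Combo200 and Combo2000 relative to Oxali, 48 in the interaction at 200 pg, 4 chaperones that rose in IFN2000 (7) and 0 members in Combo2000 relative to Oxali, where Fkbp5 was at −0.12 (adjusted p = 0.281); Slc45a3 in Combo2000 relative to Ctrl was at 0.45 (adjusted p = 0.0911). The block with the length and GC correction gave 1220 and 1526 in IFN2000 relative to Ctrl and IFN200, 7 androgen response genes in IFN2000 and 1 member in the interaction at 2000 pg.

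Leaving out 1 library at a time gave 4 to 24 called genes in IFN200, 732 to 2897 in IFN2000 (732 without Ctrl replicate 1, 851 without IFN2000 replicate 2), 1190 to 3399 in IFN2000 relative to IFN200, 128 to 285 and 357 to 709 in Combo200 and Combo2000 relative to Oxali, 118 to 215 between the combinations, 40 to 160 and 131 to 1029 in the interactions (1029 without IFN2000 replicate 3), 7 to 15 androgen response genes in IFN2000, and 0 to 1 members in Combo2000 relative to Oxali. Low depth limits the values of Slc45a3, with 35 to 76 reads, and of the 4 untested members.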

Other observations

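The hypoxia genes, listed because NDRG1 is one of them in other cells, mostly fell with oxaliplatin, and 9 of 16 rose with IFNγ at 2000 pg. Of 16 tested, 1 rose and 13 fell in Oxali (median log2 fold change −0.48; 32.8% of all tested genes fell), 1 rose and 12 fell in Combo2000 (median −0.65; 33.5% fell), and 9 rose, 7 were not called and none fell in IFN2000 (median 0.19; 8.39% rose). In Oxali Pgk1, of glycolysis, fell by 1.54 on the log2 scale, its mean over 2 libraries being 984 ± 17.8 CPM in Ctrl and 339 ± 10.6 in Oxali, Slc2a1, the glucose transporter, was at −1.47 and the mitophagy receptor Bnip3 at −1.33, while the collagen hydroxylase P4ha2 rose by 0.72. With IFN200 replicate 1 and IFN2000 replicate 2 left out 10 rose in IFN2000. In IFN2000 Higd1a, Bnip3 and Vegfa rose by 0.42, 0.33 and 0.31.

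The markers of epithelial types in the line also changed. In Oxali Ly6a and Krt4 fell by 2.42 and 1.67 on the log2 scale and Psca rose by 0.47, and of the luminal keratins Krt19 fell by 0.61 and Krt8 rose by 0.21 (adjusted p = 0.0155; 0.025 and not called with the length and GC correction). Itgb4 and Krt14, found in basal cells, rose by 2.40 and 1.40, and Krt17 had 0 reads in both Ctrl libraries and 4 and 6 in Oxali. Of all tested genes 34.8% rose and 32.8% fell there. The 7 basal markers summed to 320 and 299 CPM in the Ctrl libraries and to 321 and 373 in those of Oxali. In IFN2000 Dst, also on the basal list, fell by 0.48. Ncam1, the only called gene of the neuroendocrine list in either comparison, rose by 2.19 in Oxali and fell by 0.26 in IFN2000. Of the 8 genes on that list, 5 and 6 had no reads in the 2 Oxali libraries. Of the markers of other cell types, Pdgfra and Lck were the only called genes of the fibroblast and leukocyte lists in Oxali. They rose by 0.73 and 1.96. In the 2 Oxali libraries 5 and 5 of the 8 fibroblast markers and 8 and 7 of the 11 leukocyte markers had no reads. Tnnt2 of the heart muscle list rose by 2.37 in Oxali. Myh7, also called, had 0 reads in both Ctrl libraries, 7 and 15 in Oxali and 58 in IFN200 replicate 1. The 5 endothelial markers were not tested.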
